A study of Homo sapiens with 6 samples.

Results

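The effect of an siRNA against HNF4A was examined in HepG2 cells that had not received TGF-beta. HepG2 is a cell line from a human hepatoblastoma that still makes many liver proteins. An siRNA is a short RNA duplex that leads to the breakdown of transcripts it pairs with. The comparison set the array of cells with the HNF4A siRNA (siHNF4a) at 0 h against the array of cells with a control siRNA (siControl) at 0 h. These are 2 of the 6 arrays of the study, chosen by their titles. The other arrays hold the same 2 siRNAs after TGF-beta, a cytokine that signals through Smad proteins, at 3 ng/ml for 1.5 or 24 h. All 6 groups are therefore transfected HepG2 cells, and each had 1 array, so the spread between repeats of a group is unknown. The labels give 1 siRNA name per arm. They do not say whether it is 1 duplex or a pool, or whether arrays came from separate transfections. HNF4A's own signal was not analysed here, so the level of the target did not serve as a check of the labels.

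HNF4A is a nuclear receptor that binds DNA as a homodimer and keeps many liver genes active, among them genes for lipid handling, bile acid metabolism, drug-metabolising enzymes and clotting proteins. It also takes part in holding hepatocytes in a differentiated, slowly dividing state. In liver cells it acts within a network of factors with the HNF1, FOXA and CEBP families. An siRNA can lower transcripts other than its target, and with 1 siRNA label against HNF4A such effects were not separated.

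Values are MAS5 signals, which are scaled intensities on a linear scale, and a gene stands for its brightest probe set over the 6 arrays. Signals below 12.9, the median of all signals, were set to that floor, and differences are siHNF4a minus siControl on the log2 scale. The 11921 genes with a mean signal above the floor were kept. All 18 hepatocyte and HepG2 markers on the array had a signal of at least 100 on both 0 h arrays. ALB, which encodes albumin, stood at 8509 in siHNF4a and 8099 in siControl, and AFP, the fetal serum protein, at 8261 and 7730. Of 18 markers of blood, endothelial and fibroblast cells, 5 were above the floor in siHNF4a and 7 in siControl, and ACTA2, a smooth-muscle actin, was the only one at 100 or more. Signals summed over those 18 genes came to 547.8 in siHNF4a and 612.7 in siControl.

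At 0 h a set of liver metabolism genes had lower signals in siHNF4a, with CYP4F3, GSTA1, DIO1, CIDEC, SLC51B and FABP1 among the foremost. Genes of inflammatory signalling, such as IL11, ICAM1, CXCL8 and TNFAIP3, had higher signals. At 2-fold or more, 175 genes (1.47% of those kept) were higher in siHNF4a and 194 (1.63%) were lower. With 1 array a side this count has no test, and in RNA from whole cultures fewer cells that express a gene and less RNA per cell cannot be told apart. The median difference over all genes was -0.01, and the central 95% of differences ran from -0.89 to 0.87. Among 7434 genes with a signal of at least 100 on the brighter 0 h array, 71 were higher at 2-fold and 65 lower, and their central 95% was narrower, from -0.70 to 0.76.

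Each difference was also set against the later pairs, which share no array with the 0 h pair. Across the 3 times, limma with time as a block called 465 genes higher (3.9%) and 496 lower (4.16%) in siHNF4a. This fit includes the 0 h pair, and its shares over all genes are the background for the list counts below. In the 1.5 and 24 h pairs alone it called 454 genes higher (3.81%) and 489 lower (4.1%). That second fit has 1 residual degree of freedom, and its p-values rest on the spread that limma took from all other genes of like brightness. The later cells also had TGF-beta and more time in culture, so a repeat there is a repeat under other conditions. Unless another fit is named, adjusted p-values are those over the 3 times. For genes named because of a large 0 h difference, that fit reuses the pair they were picked on. Its estimates and p-values then lean towards a difference and are no independent support.

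The lower genes at 0 h were led by CYP4F3, a cytochrome P450 that omega-hydroxylates leukotriene B4 and fatty acids. Its signal was 21.9 in siHNF4a, against 150.3 in siControl, which is 6.86-fold lower. In the later pairs CYP4F3 stood at 34.7 and 10.6 in siHNF4a (1.5 and 24 h), against 140.2 and 127.7 in siControl. The siHNF4a values lay below the siControl values at every time. GSTA1, a glutathione transferase abundant in liver, had 43.0 in siHNF4a and 204.7 in siControl at 0 h. Its later signals were 50.3 and 9.9 in siHNF4a, against 192.4 and 44.7 in siControl. GSTA1 in siControl at 24 h thus stood at the siHNF4a level at 0 h, so the arms overlap across times. The siHNF4a signal was the lower one at each time. DIO1, the deiodinase that converts thyroxine to its active form, had 110.2 in siHNF4a and 430.7 in siControl. Its later values were 107.3 and 33.2 in siHNF4a, against 382.2 and 286.8 in siControl, with no overlap between the arms. How many of all genes kept their arms apart in this way was not counted, here or for genes below. Over the 3 times CYP4F3 fell by 2.70 ± 0.25 (SE, adjusted p = 1.75e-05), GSTA1 fell by 1.99 ± 0.21 (adjusted p = 3.76e-05) and DIO1 fell by 2.30 ± 0.21 (adjusted p = 1.75e-05).

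Other genes of lipid and bile acid handling stood near 3-fold lower. CIDEC, a protein that enlarges lipid droplets, had 56.7 in siHNF4a and 179.1 in siControl at 0 h, and 56.0 and 44.7 against 184.7 and 122.5 later. FABP1, the liver fatty acid carrier, had 386.4 in siHNF4a and 1049 in siControl, and 453.3 and 129.8 against 936.0 and 813.8 later. Both genes kept every siHNF4a signal below every siControl signal. SLC51B, 1 subunit of the basolateral bile acid exporter OST, had 66.6 in siHNF4a and 194.5 in siControl at 0 h. Its later signals were 38.0 and 34.2 in siHNF4a, against 212.8 and 99.3 in siControl. SOAT2, which esterifies cholesterol in hepatocytes, had 94.7 in siHNF4a and 259.4 in siControl at 0 h, and 97 and 36.7 against 279.0 and 172.1 later. MAT1A, the liver enzyme that makes S-adenosylmethionine, had 49.4 in siHNF4a and 135.1 in siControl. Its later signals were 51.0 and 25.7 in siHNF4a, against 130.9 and 37.1 in siControl, so its gap was smaller at 24 h than at 1.5 h. All 5 passed over the 3 times, with adjusted p from 4.66e-05 for SOAT2 to 0.00795 for MAT1A.

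**Figure D1:**
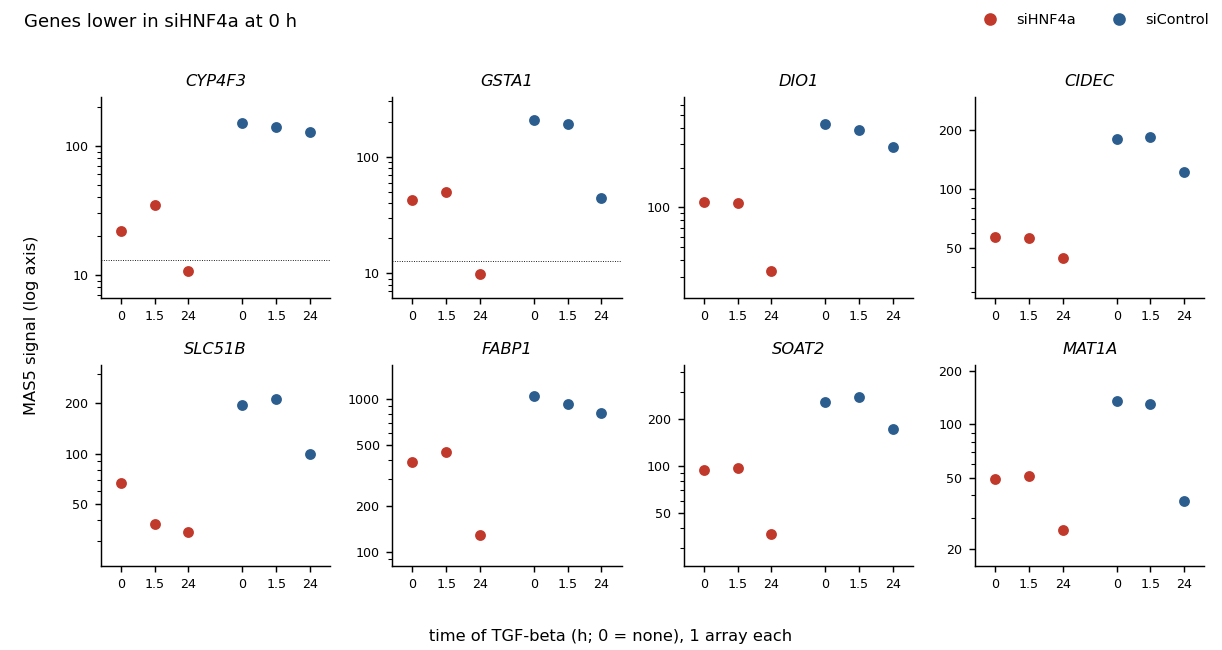
MAS5 signal (log axis) of 8 genes that were at least 2-fold lower in siHNF4a at 0 h, with 1 point per array, siHNF4a on the left and siControl on the right of each panel, by hours of TGF-beta. The dotted line is the floor of 12.9. FABP1 reads 386.4 in siHNF4a and 1049 in siControl at 0 h, and the siHNF4a point is the lower one at each of the 3 times in every panel.

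The rule that picked the 15 lowest genes on signal also took genes of other kinds. GPR157, an orphan receptor, had 51.8 in siHNF4a and 254.8 in siControl (difference -2.30), and it stayed lower at 1.5 h (-1.94) and at 24 h (-1.69). SMIM15, a small membrane protein, had 508.5 in siHNF4a and 1523 in siControl. Its differences of -1.58, -1.47 and -1.20 at 0, 1.5 and 24 h were nearly alike. SNRNP40, a spliceosome subunit, had 196.4 in siHNF4a and 670.5 in siControl. AP1S2, VRK3, PABIR2 and TAFA5 completed the group with differences from -1.88 to -1.58, and all 4 passed over the 3 times. TEDC2, a centriole protein, had 6.8 in siHNF4a, which is under the floor, and 112.4 in siControl. Its later signals were 22.6 and 1.6 in siHNF4a, against 98.5 and 33.0 in siControl.

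Not every gene in that group was repeated. PITPNA-AS1, an antisense transcript, had 32.7 in siHNF4a and 100.5 in siControl at 0 h. Later it had 90.0 and 63.1 in siHNF4a, against 56.8 and 82.9 in siControl, so the sign turned at 1.5 h, and the adjusted p was 0.459. RNH1, the ribonuclease inhibitor, had 102.6 in siHNF4a and 466.5 in siControl (-2.18), and the gap held later (-2.25 and -1.58). A further RNH1 probe set above the floor gave 0.16 at 0 h, so its probe sets disagree. Probe sets also disagreed for AP1S2 (2 of 3 others had the sign of the brightest one), VRK3 (3 of 4) and TAFA5 (1 of 2).

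Most textbook HNF4A targets had a lower signal in siHNF4a at 0 h, 28 of the 40 genes kept, as did 6165 of all 11921. Their median difference was -0.37, beside -0.01 over all genes. At 2-fold 5 were lower and none was higher. These were CIDEC, SLC51B, FABP1, PKLR and F7. PKLR, the liver pyruvate kinase, had 17.9 in siHNF4a and 37.6 in siControl, both close to the floor. F7, which encodes coagulation factor VII, had 58.9 in siHNF4a and 123.5 in siControl, and its later signals were 65.6 and 58.9, against 117.5 and 96.5. It did not pass in the later pairs alone. In the fit over the 3 times 13 targets fell, 2 rose and 25 did not pass. The remaining 8 that fell were CIDEB, SERPINC1, ACOX2, SULT2A1, CYP27A1, APOC3, APOM and TTR. For these 8 the difference at 0 h lay between -0.84 (CIDEB) and -0.38 (TTR), so they moved by less than 2-fold. CIDEB, which helps load VLDL with lipid, had 405.7 in siHNF4a and 725.3 in siControl at 0 h. SERPINC1, which encodes antithrombin, had 296.4 in siHNF4a and 521.5 in siControl. The 2 that rose were HAMP, the iron hormone hepcidin, with 1505 in siHNF4a and 955.6 in siControl at 0 h, and PROX1, a liver transcription factor, with 473.4 and 402.4.

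Lipid droplet and fatty acid oxidation genes had a median of -0.35 over 45 kept, with 5 at 2-fold lower and none at 2-fold higher at 0 h. Beside CIDEC, SOAT2 and FABP1 these were CRAT and MOGAT3. CRAT, which moves acetyl groups between carnitine and coenzyme A, had 87.9 in siHNF4a and 212.3 in siControl. MOGAT3, a monoacylglycerol acyltransferase, had 33.6 in siHNF4a and 67.3 in siControl. By limma 13 fell, among them HADHA of the mitochondrial trifunctional protein (-0.56 at 0 h), and 2 rose. Those 2 went against the list. PLIN2, the coat protein of lipid droplets, had 3681 in siHNF4a and 2340 in siControl at 0 h, and 4324 and 8838 against 2187 and 4004 later, although its other probe set had the opposite sign at 0 h. FABP5, the epidermal fatty acid carrier, had 1982 in siHNF4a and 1507 in siControl.

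Bile acid genes had a median of -0.37 over 24 kept, and 6 fell over the 3 times while none rose. SLCO2B1, an organic anion uptake carrier, had 52.9 in siHNF4a and 100.5 in siControl at 0 h. Its gap was wider later, with 29.3 and 21.5 against 109.1 and 80.0. SLC51A, the partner of SLC51B, was near the floor at 0 h, with 12.3 in siHNF4a and 19.8 in siControl. SLC22A7, an organic anion carrier, had 28.7 in siHNF4a and 69.2 in siControl at 0 h. As siControl at 1.5 h read 29.3, the 2-fold difference of this probe set rests on the siControl 0 h array. A further SLC22A7 probe set above the floor gave -1.71 at 0 h. The brightest set had an adjusted p of 0.0343 over the 3 times and did not pass in the later pairs alone. Brighter members fell as well. ACOX2, which shortens the bile acid side chain in peroxisomes, had 286.0 in siHNF4a and 444.8 in siControl. CYP27A1, which hydroxylates the sterol side chain, had 432.6 in siHNF4a and 632.9 in siControl.

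Cytochrome P450 genes had a median of -0.27 over 23 kept, and the 3 at 2-fold lower were all of the CYP4F family. CYP4F12 had 67.9 in siHNF4a and 150.6 in siControl at 0 h, and CYP4F2, the vitamin K1 hydroxylase, had 15.7 and 43.4. Both passed over the 3 times, with adjusted p of 0.00208 and 0.0217. In the later pairs alone CYP4F12 passed and CYP4F2 did not. CYP4F2 and CYP4F3 are close paralogs whose probe sets may not separate them fully, and CYP4F11 (-0.72) did not pass. CYP24A1, which inactivates vitamin D, rose, with 888.0 in siHNF4a and 619.9 in siControl.

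Conjugating enzymes had a median of -0.35 over 26 kept, and 23 of the 26 had a lower signal in siHNF4a at 0 h (6165 of 11921 over all genes). Those that fell over the 3 times were 6, namely GSTA1, GSTM4, SULT2A1, NAT1, SULT1A1 and MGST1, and SULT1C4 rose. SULT2A1, which sulfates steroids and bile acids, had 136.7 in siHNF4a and 211.6 in siControl. At 2-fold lower stood GSTA1, SULT1C2 and NAT2, of which SULT1C2 (50.5 in siHNF4a, 108.0 in siControl) was not repeated later. NAT2 had 3.4 in siHNF4a, under the floor, and 26.7 in siControl, and did not pass.

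Alcohol, aldehyde and carbonyl enzymes had a median of -0.22 over 37 kept. Over the 3 times 10 fell and none rose. ALDH8A1, an aldehyde dehydrogenase of the tryptophan breakdown pathway, was the lowest of the list, with 63.5 in siHNF4a and 208.9 in siControl at 0 h. AKR1B10, an aldo-keto reductase high in liver tumours, had 1394 in siHNF4a and 3139 in siControl at 0 h, and 1512 and 185.2 against 2940 and 845.4 later. ADH4, an alcohol dehydrogenase of liver, had 349.2 in siHNF4a and 652.4 in siControl. ADH6 of the same family had 386.2 in siHNF4a and 534.4 in siControl. AKR1B10 was also the 1 member of the NRF2 target list at 2-fold at 0 h, where the list median was 0.01 over 26 kept.

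Promoters were searched for CAAAGTCCA, the core of the motif that HNF4A prefers over other nuclear receptors, because the lower genes include its known targets. Both strands were read, as was CAAAGTNCA, which contains it. RefSeq promoters (GRCh38.p14, 250 bases before to 50 after the gene start) were matched by symbol for 147 of the 194 genes at 2-fold lower and 134 of the 175 at 2-fold higher. CAAAGTCCA was in 5 of the 147 (3.4%) and in none of the 134, and in 0.36% of all 27305 promoters. Among the 9736 genes kept that matched, it was in 0.3%. Of 29 textbook targets that matched, 2 (6.9%) held it, F10 (-0.29 at 0 h) and CYP2A6 (-0.11). Neither was called lower in the later pairs. None of the textbook targets at 2-fold lower was among the genes holding it. CAAAGTNCA was in 6 of the 147 (4.08%), 1 of the 134 (0.75%) and 1.07% of all promoters. Among the 9736 genes kept that matched, it was in 0.71%. A match says only that these letters are there. The 5 genes were ERICH4, LEAP2, PIPOX, PUS10 and UNC5CL, and LEAP2, PIPOX and PUS10 were also called lower in the later pairs. Their promoters are given 5′ to 3′ on the strand of the gene, with the match in capitals, for LEAP2 at chr5:132873418-132873717 on the plus strand, PIPOX at chr17:29042891-29043190 on the plus strand and PUS10 at chr2:61018206-61018505 on the minus strand.
LEAP2: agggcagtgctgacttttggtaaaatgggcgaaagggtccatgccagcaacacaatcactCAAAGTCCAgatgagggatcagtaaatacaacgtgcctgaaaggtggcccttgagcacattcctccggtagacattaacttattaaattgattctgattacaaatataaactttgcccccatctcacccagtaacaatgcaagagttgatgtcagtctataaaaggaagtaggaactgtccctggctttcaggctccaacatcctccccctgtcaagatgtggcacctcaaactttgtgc
PIPOX: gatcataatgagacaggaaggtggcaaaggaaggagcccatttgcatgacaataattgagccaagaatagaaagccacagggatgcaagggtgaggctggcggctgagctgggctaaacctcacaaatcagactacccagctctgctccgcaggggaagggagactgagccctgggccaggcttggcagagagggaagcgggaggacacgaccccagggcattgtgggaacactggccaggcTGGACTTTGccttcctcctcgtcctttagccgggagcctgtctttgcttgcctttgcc
PUS10: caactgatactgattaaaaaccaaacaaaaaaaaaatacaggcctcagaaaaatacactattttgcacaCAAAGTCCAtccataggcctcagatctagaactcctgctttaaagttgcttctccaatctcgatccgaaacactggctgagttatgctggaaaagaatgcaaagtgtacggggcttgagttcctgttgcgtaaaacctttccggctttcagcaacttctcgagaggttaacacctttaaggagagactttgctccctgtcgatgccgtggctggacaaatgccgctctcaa
In PIPOX the match reads TGGACTTTG because the motif lies on the other strand. LEAP2, a liver antimicrobial peptide that also blocks the ghrelin receptor, had 60.4 in siHNF4a and 159.3 in siControl at 0 h, and 63.3 and 13.4 against 124.2 and 56.5 later. PIPOX, the peroxisomal enzyme that oxidises sarcosine and pipecolate, had 315.9 in siHNF4a and 757.4 in siControl, and 328.5 and 221.5 against 691.8 and 586.8 later. PUS10, a pseudouridine synthase, had 105.8 in siHNF4a and 218.8 in siControl, and 119.5 and 57.0 against 216.9 and 133.5 later. In PIPOX every siHNF4a signal lay below every siControl signal.

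The higher genes at 0 h included secreted and surface proteins of inflammatory signalling. IL11, a cytokine of the IL6 family, had 150.3 in siHNF4a and 28.5 in siControl, which is 5.27-fold higher. Later it had 184.8 and 2027 in siHNF4a, against 28.2 and 156.5 in siControl. ICAM1, the adhesion receptor for leukocyte integrins, had 459.8 in siHNF4a and 130.7 in siControl at 0 h. Its later signals were 383.2 and 414.9 in siHNF4a, against 168.4 and 182.9 in siControl, with no overlap between the arms. CXCL8, the neutrophil chemokine, had 171.1 in siHNF4a and 66.0 in siControl, and 165.4 and 1435 against 36.2 and 167.5 later. TNFAIP3, the ubiquitin-editing enzyme that restrains NF-kB, had 488.0 in siHNF4a and 210.8 in siControl, and 479.2 and 351.4 against 238.7 and 254.3 later. IL11 and CXCL8 in siControl at 24 h reached the siHNF4a level at 0 h. Over the 3 times IL11 rose by 2.94 ± 0.22 (SE, adjusted p = 6.16e-06), CXCL8 rose by 2.22 ± 0.24 (adjusted p = 4.63e-05), ICAM1 rose by 1.39 ± 0.15 (adjusted p = 5.61e-05) and TNFAIP3 rose by 0.89 ± 0.15 (adjusted p = 0.00193).

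A further group of higher genes kept the direction at 1.5 and 24 h, with sizes that varied from gene to gene. FAM3C, a secreted cytokine-like protein, had 568.0 in siHNF4a and 157.2 in siControl at 0 h, and its differences of 1.85, 1.82 and 1.80 at 0, 1.5 and 24 h were nearly alike. AIDA, an axin-interacting protein, had 1278 in siHNF4a and 330.1 in siControl, with differences of 1.95, 2.10 and 1.29. AMMECR1 had 171.8 in siHNF4a and 35.4 in siControl, with differences of 2.28, 2.60 and 1.66. PHTF2 had a difference of 1.89 at 0 h, C21orf91 one of 1.80, and TULP3, a tubby-family protein of cilia, had 124.3 in siHNF4a and 39.2 in siControl. Each of these 6 passed in the later pairs as well. UBA3, a subunit of the NEDD8-activating enzyme, had 572.0 in siHNF4a and 206.0 in siControl, and 557.6 and 640.6 against 214.7 and 337.2 later. BHMT2, a homocysteine methyltransferase, had 297.7 in siHNF4a and 111.3 in siControl, and it was the highest member of the amino acid list, whose median was -0.06 over 51 kept. TUBB2B, a beta-tubulin isotype, had 181.2 in siHNF4a and 63.0 in siControl, and RASD1, a Ras-related protein induced by glucocorticoid, had 266.6 and 93.0. LHFPL2 had 273.4 in siHNF4a and 92.1 in siControl. In these 5 genes the siHNF4a signal was the higher one at every time. SMTN, a smooth-muscle cytoskeletal protein, had 182.3 in siHNF4a and 61.4 in siControl at 0 h but 128.7 against 105.5 at 1.5 h, and it did not pass in the later pairs (adjusted p = 0.256).

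**Figure D2:**
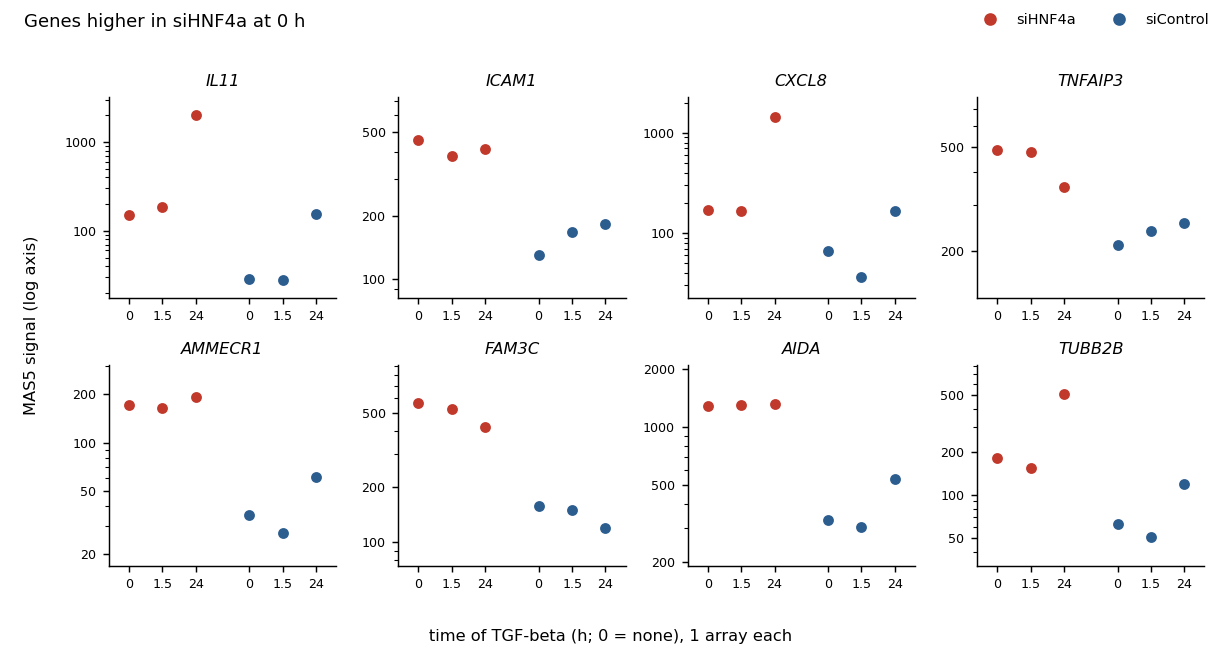
MAS5 signal (log axis) of 8 genes at least 2-fold higher in siHNF4a at 0 h, with 1 point per array, siHNF4a on the left and siControl on the right of each panel, by hours of TGF-beta. FAM3C reads 568.0 in siHNF4a and 157.2 in siControl at 0 h, and the siHNF4a point is the higher one at each of the 3 times in every panel.

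Inflammatory and immediate-early genes had a median difference of 0.24 over 47 kept at 0 h, beside -0.01 over all genes. IL11, ICAM1, CXCL8 and TNFAIP3 were at 2-fold higher, and DUSP8 and PLAUR at 2-fold lower. PLAUR, the urokinase receptor, had 42.8 in siHNF4a and 90.3 in siControl at 0 h, and DUSP8, a MAP kinase phosphatase, had 10.6 and 27.3. Neither passed over the 3 times. In that fit 13 genes of the list rose and none fell. The early-response regulators among them varied at 0 h. EGR1 had 416.3 in siHNF4a and 351.5 in siControl, MYC had 2140 and 1773, and IER3 had 2424 and 2096. ATF3, a stress-induced transcription factor, had a wider gap with 86.4 in siHNF4a and 45.3 in siControl, and KLF4, a zinc finger factor, had 57.3 and 38.3. EGR1 had 2789 in siHNF4a and 747.0 in siControl at 24 h, so its call comes mainly from that pair. DUSP1, which inactivates MAP kinases, had 430.2 in siHNF4a and 271.0 in siControl at 0 h. CCL20, a chemokine for CCR6 cells, had 2729 in siHNF4a and 2334 in siControl.

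TGF-beta feedback genes and direct targets had a median of 0.25 over 40 kept in these cells without added TGF-beta. THBS1, CDKN2B and FSTL3 were at 2-fold higher and MIXL1 at 2-fold lower. THBS1, a matrix protein that can activate latent TGF-beta, had 959.5 in siHNF4a and 463.5 in siControl at 0 h, and 890.1 and 1944 against 478.0 and 983.4 later. CDKN2B, a cell cycle inhibitor and known Smad target, was 1.31 higher in log2, although its other probe set showed no difference once floored. FSTL3, which binds activins, had 115.2 in siHNF4a and 55.5 in siControl. MIXL1, a mesendoderm factor, had 22.6 in siHNF4a and 55 in siControl, and 43.9 and 15.8 against 128.8 and 30.3 later. By limma 10 genes of the list rose and 2 fell (MIXL1 and TGFBR3). TGFBR2, the type II receptor, had 2764 in siHNF4a and 1869 in siControl at 0 h, whereas TGFBR3, the co-receptor betaglycan, had 1480 in siHNF4a and 2099 in siControl.

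Genes of the endoplasmic reticulum stress list had a median of 0.20 over 31 kept, and 26 of the 31 were higher in siHNF4a at 0 h (5623 of 11921 over all genes). XBP1, a transcription factor of the unfolded protein response, had 1912 in siHNF4a and 932.3 in siControl, and 1606 and 1138 against 785.0 and 1077 later. HYOU1, a chaperone, had 1007 in siHNF4a and 549.0 in siControl, and DNAJB9, a co-chaperone, had 680.0 and 429.9. HERPUD1, which serves protein degradation at that membrane, had 1590 in siHNF4a and 1163 in siControl. Of the list 8 rose and TRIB3 fell over the 3 times, but none fell under either scaling alternative. DDIT4, also at 2-fold at 0 h, is described with the siControl 0 h array.

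Progenitor and biliary markers had a median of 0.19 over 27 kept, with none at 2-fold. Of the 27, 7 rose over the 3 times and none fell. CD24, a surface marker of liver progenitors, had 4038 in siHNF4a and 2147 in siControl at 0 h, and 4152 and 6802 against 2052 and 3512 later. IGF2BP1, a fetal RNA-binding protein, had 496.3 in siHNF4a and 248.5 in siControl. SOX4 had 1284 in siHNF4a and 889.1 in siControl, and KRT19, a biliary keratin, had 3200 and 2353. EPCAM ran the other way at 0 h, with 1559 in siHNF4a and 2150 in siControl, and did not pass (adjusted p = 0.0548). Adhesion and cytoskeleton genes had a median of 0.17 over 54 kept. Of these 8 rose over the 3 times, with ITGB1 at 3953 in siHNF4a and 2591 in siControl at 0 h, and 2 fell, CDH1 (132.2 in siHNF4a, 196.8 in siControl) and GJB1 (208.9 and 251.8). VIM was the 1 member at 2-fold higher, at 27.4 in siHNF4a and 5.5 in siControl, and did not pass.

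Plasma protein genes moved in both directions. Clotting genes had a median of 0.09 over 24 kept. The 3 fibrinogen chains rose, with FGB at 1511 in siHNF4a and 846.6 in siControl, FGA at 1726 and 1039, and FGG at 3913 and 2976, while F7, SERPINA10, SERPINC1 and SERPIND1 fell. FGL1, a fibrinogen-like liver protein, rose as well. Complement genes had a median of -0.16 over 19 kept. CD59, the membrane inhibitor of complement lysis, had 484.0 in siHNF4a and 1223 in siControl, and all 4 of its other probe sets were lower too. MASP2, a protease of the lectin pathway, had 11.4 in siHNF4a and 49.2 in siControl, and its other probe set went the other way. C3 had 3828 in siHNF4a and 2204 in siControl at 0 h but 2810 and 2933 at 1.5 h, and C5 had 646.4 and 375.7 at 0 h. C4BPB fell, and CLU rose. Among other secreted proteins, with a median of 0.07 over 32 kept, SERPINA3 and IGFBP1 rose with HAMP, and LEAP2, HP, TTR and ORM1 fell. HP, haptoglobin, had 437.7 in siHNF4a and 634.2 in siControl.

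Apolipoprotein genes had a median of -0.08 over 24 kept, with none at 2-fold at 0 h. APOC3, which slows the clearance of triglyceride-rich lipoproteins, had 560.1 in siHNF4a and 754.4 in siControl, and 483.8 and 352.9 against 997.6 and 811.0 later. APOM and APOL1 fell as well, and APOC1 rose. The respiratory chain list, 46 subunits, had a median of -0.10 with none at 2-fold, and 2 of them, NDUFS7 and UQCRC2, fell over the 3 times, where 4.16% of all genes fell. With arrays scaled to the same median none of the 46 fell.

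Sugar and sterol genes had medians near that of all genes, 0.07 over 38 kept and 0.02 over 31 kept, and members that moved in both directions. Over the 3 times 3 sugar genes rose (UGP2, HK2 and PFKP) and 4 fell (PKLR, SLC2A9, SLC37A4 and TKFC). Of the sterol and fatty acid synthesis genes 3 rose (ELOVL6, SCD and HMGCS1) and 2 fell (EBP and ELOVL2). In the same fit 3.9% of all genes rose and 4.16% fell. UGP2, which makes UDP-glucose, had 1704 in siHNF4a and 682.8 in siControl at 0 h, and 1938 and 2402 against 708.5 and 1343 later. HK2, the hexokinase of tumour cells, had 799.3 in siHNF4a and 423.3 in siControl. ELOVL6, a fatty acid elongase, had 323.9 in siHNF4a and 146.1 in siControl, and 327.5 and 335.4 against 187.1 and 203.6 later. In all 3 of these genes the siHNF4a signal was the higher one at every time. SCD, the stearoyl-CoA desaturase, had 2343 in siHNF4a and 1344 in siControl. FASN, the fatty acid synthase, had 535.8 in siHNF4a and 302.3 in siControl at 0 h but 285.3 and 442.4 at 1.5 h, and did not pass. SLC37A4, the glucose 6-phosphate carrier of the endoplasmic reticulum, had 221.8 in siHNF4a and 318.2 in siControl, and EBP, a sterol isomerase, had 415.6 and 604.8.

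Liver transcription factors and nuclear receptors had a median of 0.20 over 41 kept, and 29 of the 41 were higher at 0 h, as were 5623 of all 11921 genes. The list's median was 0.01 at 1.5 h and 0.00 at 24 h. Over the 3 times 2 of the 41 rose (RORA and PROX1), 1 fell (PPARD) and 38 did not pass. Over all genes 3.9% rose and 4.16% fell in this fit. No member of the list fell with arrays scaled to the same median. PPARG, a nuclear receptor of fat storage, was the 1 member at 2-fold, with 177.6 in siHNF4a and 81.5 in siControl. Its later signals were 123.9 and 310.3 in siHNF4a, against 109.4 and 233.8 in siControl, and it did not pass (adjusted p = 0.0783). RORA, an orphan nuclear receptor, had 82.7 in siHNF4a and 47.9 in siControl, and 119.2 and 215.5 against 43.2 and 63.2 later (adjusted p = 0.00138). FOXA1, a pioneer factor of liver, had 310.9 in siHNF4a and 195.0 in siControl at 0 h but 220.2 and 263.5 at 1.5 h.

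Cell cycle genes had a median of -0.17 over 63 kept at 0 h, and none was at 2-fold. Over the 3 times 16 fell and 2 rose (CDK6 and CCND2). The lowest was E2F8, a repressor of the E2F family, with 70.0 in siHNF4a and 135.8 in siControl at 0 h. CDT1, which licenses replication origins, had 264.2 in siHNF4a and 427.1 in siControl. MKI67, the proliferation antigen, had 276.8 in siHNF4a and 367.1 in siControl at 0 h, and 88.2 and 162.6 at 24 h. The list's median was -0.43 at 24 h. Interferon-response genes had a median of -0.14 over 37 kept. IFIT1, which binds viral RNA caps, had 14.0 in siHNF4a and 40.9 in siControl at 0 h, and IFITM1 had 42.9 and 83.4. Of this list 5 fell over the 3 times, IFIT1, IFITM1, ISG15, IFI35 and IRF9, and IFIT5 rose.

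**Figure D3:**
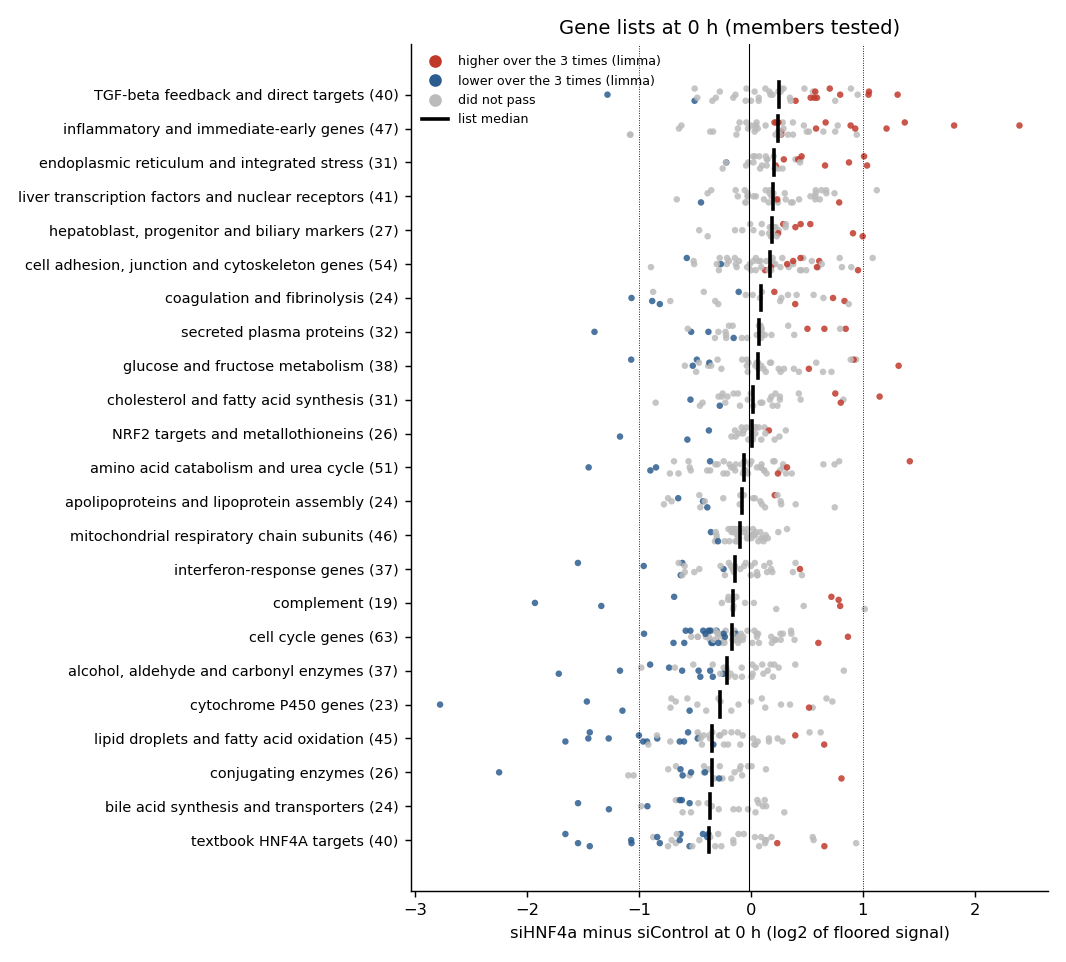
Difference at 0 h (siHNF4a minus siControl, log2 of floored signal) for every gene kept in 23 lists, 1 row per list with the number of genes in brackets. Short black bars are list medians, the solid line is the median of all 11921 genes and dotted lines mark 2-fold, and red and blue points rose or fell over the 3 times by limma. Medians run from 0.25 for TGF-beta feedback genes at the top to -0.37 for textbook HNF4A targets at the bottom, and every list holds points on both sides of the line.

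How far the 0 h differences came back on the other arrays depended on brightness. Of the 71 higher genes at signals of 100 or more, 65 had the same sign at both later times and 58 were called higher in the later pairs. Of the 65 lower ones, 57 kept the sign at both times and 48 were called lower. No gene of either group was called in the opposite direction. Below a signal of 50, 75 genes were higher and 89 lower at 2-fold, and 5 and 8 of them were called the same way later. At 300 or more the numbers were 34 of 35 higher and 22 of 25 lower. Over all genes kept, 3.81% were called higher and 4.1% lower in the later pairs. A dim gene also needs a larger difference to pass, with an SE of 0.37 for SLC51A and 0.12 for PLIN2 in that fit. Across genes of at least 100 the difference at 0 h had a Pearson correlation of 0.488 with that at 1.5 h and of 0.598 with that at 24 h, given as a description since genes are not replicates. The 3 pairs share no array. For the 2-fold genes at 100 or more, 138 of 157 other probe sets above the floor (87.9%) had the sign of the brightest one. Among other genes described, at least 1 further probe set had the opposite sign at 0 h for AMMECR1, SMTN, THBS1, HK2, FGA and EGR1. The same held for DUSP8, CDK6, CCND2, TRIB3, PPARD, WDR74, CAPN10 and CSNK1G1. The other 2 sets of CSNK1G1 gave -0.01 and 0.03. That of C21orf91 showed no difference once floored, as did the lowest of the 4 others of KDM4B.

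**Figure D4:**
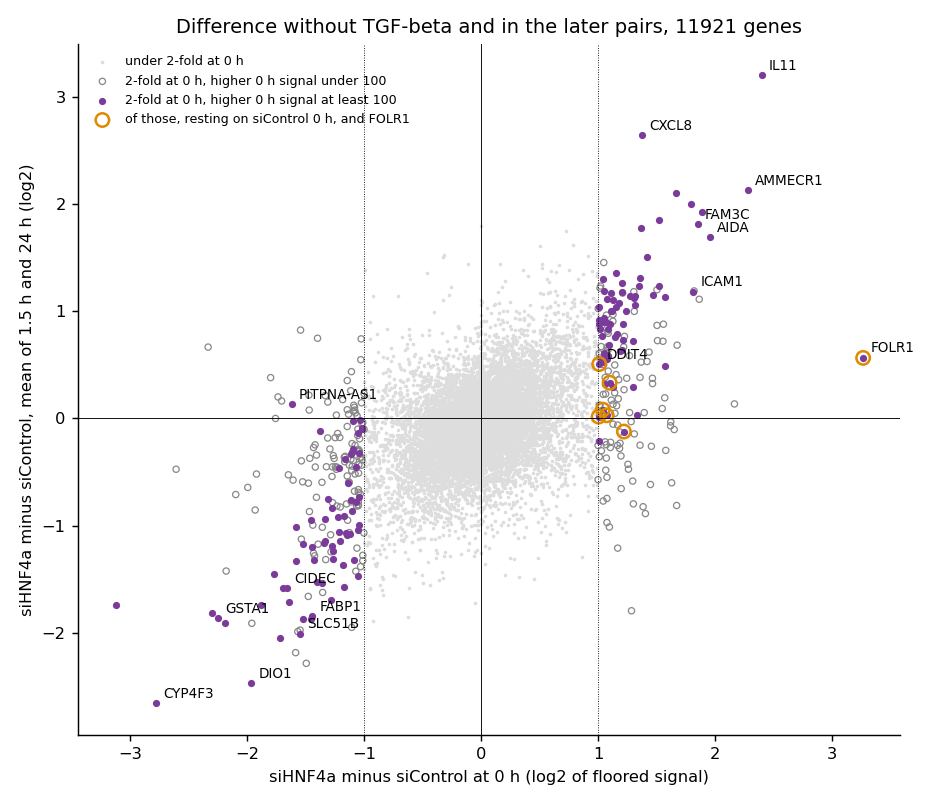
Each of 11921 genes by its difference at 0 h (x axis) and its mean difference at 1.5 and 24 h (y axis), both siHNF4a minus siControl in log2. Purple points are 2-fold at 0 h with a signal of at least 100, open grey circles are dimmer genes at 2-fold, and orange rings mark FOLR1 and the 6 bright genes that rest on the siControl 0 h array. CYP4F3 lies at -2.78 and -2.66 and IL11 at 2.40 and 3.20, while FOLR1 lies at 3.27 and 0.57.

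The siControl 0 h array stood apart from the other 5 in probe sets for ribosomal RNA. The 5′ probe set for 18S rRNA read 8600 there and between 69.8 and 736.5 elsewhere, and its middle and 3′ sets read 1333 and 461.9, above the other 5 arrays as well. The 28S rRNA 5′ set read 913.1 against 453.9 to 653.2. The GAPDH 3′ to 5′ ratio was 0.888 there and 0.947 to 0.977 elsewhere, while that of beta-actin lay within the range of the others. Whether this touched the gene differences was not tested. Among the 7875 genes with a signal of 100 or more on some array, 2 were at least 2-fold below all other arrays on siControl 0 h (FOLR1 and DDIT4) and none was above. On siControl the counts were 1 above and 5 below at 1.5 h, and 8 above and none below at 24 h. On siHNF4a they were 57 above and 46 below at 24 h. Those arrays also had TGF-beta, so their counts are no baseline for the siControl 0 h array. On siHNF4a 0 h 1 was below, TRAF3IP2, an adaptor of IL17 signalling, with 39.3 in siHNF4a and 101.9 in siControl.

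A 2-fold difference was taken to rest on the siControl 0 h array when it fell under 0.5 in log2 with siControl at 1.5 h in its place, while siHNF4a at 1.5 h still differed from siControl 0 h by 0.5 or more. A gene that moved with TGF-beta or time in both arms can meet this rule too. By it 29 of the 175 higher genes and 22 of the 194 lower ones rested on that array, and 20 and 26 on siHNF4a 0 h. With either array replaced, 103 higher and 136 lower genes stayed above 0.5 in the same direction. At signals of 100 or more, 6 higher genes and no lower gene rested on siControl 0 h. They were CSNK1G1, ZDHHC21, ARFGAP1, PIMREG, DDIT4 and KDM4B, with differences from 1.22 to 1.01. CSNK1G1, a casein kinase, had 105.6, 67.6 and 111.1 in siHNF4a at 0, 1.5 and 24 h, against 45.3, 86.4 and 103.0 in siControl, where the 0 h value is the low one. ARFGAP1, a Golgi trafficking protein, had 205.1, 152.1 and 147.5 in siHNF4a, against 97.4, 165.4 and 130.2 in siControl. DDIT4, a stress-induced inhibitor of mTORC1, had 362.1, 1110 and 1200 in siHNF4a, against 179.8, 1003 and 656.4 in siControl, so both 0 h arrays were low for it.

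The dim genes that rest on that array had differences from -2.33 (ANHX) to 2.17 (ZNF385A). ZNF385A, a zinc finger protein, had 57.9 in siHNF4a at 0 h and 9.8 in siControl, which is under the floor, but 54.7 and 41.1 in siControl later. SYT15, of the synaptotagmin family, had 41.1 in siHNF4a and 7.5 in siControl at 0 h, and 36.4 and 29.7 in siControl later. IKBKB-DT, TIGD5, DYRK3 and AKNA were the other 4 of the 6 largest, with differences from 1.63 to 1.38. On the lower side ANHX, a homeobox gene, had 8.8 in siHNF4a and 65.0 in siControl at 0 h, and KLK4, a kallikrein protease, had 11.1 and 43.6, while in siControl both were under the floor at 1.5 and 24 h. FAM186A, SENP7, LRRC36 and HRCT1 followed, with differences from -1.47 to -1.33. None of these 12 genes passed over the 3 times.

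FOLR1, the folate receptor alpha, had the largest difference of all genes kept with both signals above the floor, and it also leaned on the siControl 0 h array. It had 968.5, 1215 and 1135 in siHNF4a at 0, 1.5 and 24 h, against 100.7, 617.3 and 1019 in siControl. The siHNF4a arrays were nearly level and the siControl 0 h array was the lowest of the 6. At 0 h it was 9.62-fold higher in siHNF4a, a difference of 3.27, and with siControl at 1.5 h in place of siControl 0 h the difference was 0.65, just above the limit of 0.5. Its other probe set was at the floor on both 0 h arrays. Without the 0 h pair its mean difference was 0.57 ± 0.14 (SE, limma adjusted p = 0.0027).

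A term for the difference at 0 h minus the mean of the later ones was called for 7 genes (0.0587%), and 487 had an unadjusted p under 0.05. The term has 1 residual degree of freedom, with the spread taken from other genes. Beside FOLR1 and ANHX these were DPP4, WDR74, CAPN10, PKDCC and TXNIP. DPP4, a membrane dipeptidyl peptidase, had 242.8, 368.8 and 169.6 in siHNF4a at 0, 1.5 and 24 h, against 210.2, 546.3 and 871.5 in siControl. The arms were nearly level at 0 h and lay apart at 24 h, and neither of its 2 other probe sets had the sign of this one at 0 h. PKDCC, a secreted kinase, had 283.0, 178.8 and 59.5 in siHNF4a, against 226.5, 338.1 and 245.8 in siControl. TXNIP, which restrains glucose uptake, had 1054, 733.7 and 166.9 in siHNF4a, against 640.1, 489.9 and 515.4 in siControl, so the higher arm changed between 1.5 and 24 h. WDR74, a ribosome assembly factor, had 394.2, 102.3 and 153.2 in siHNF4a, against 281.5, 308.9 and 310.4 in siControl. CAPN10, a calpain, had 56.1, 14.2 and 11.9 in siHNF4a, against 23.0, 44.7 and 49.4 in siControl, and its difference of 1.29 at 0 h was lost with either array replaced.

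**Figure D5:**
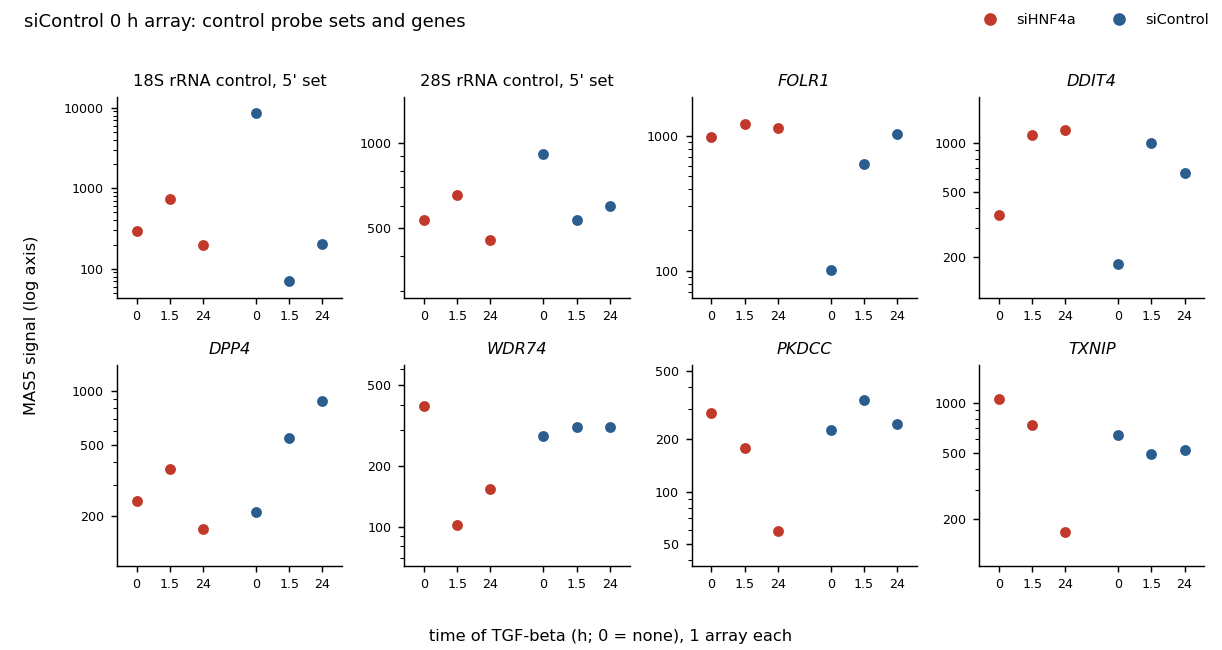
MAS5 signal (log axis) on the 6 arrays for 2 ribosomal RNA control probe sets and 6 genes, siHNF4a on the left and siControl on the right of each panel, by hours of TGF-beta. The siControl 0 h array reads 8600 for the 18S rRNA 5′ set, the highest of the 6, and 100.7 for FOLR1, the lowest.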

How the data were processed

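Total RNA of HepG2 cells was hybridised to 6 Affymetrix arrays, 1 for each pairing of siHNF4a or siControl with 0, 1.5 or 24 h of TGF-beta, per the labels. The deposited values are linear intensities, made by the authors in MAS5 (5.0) and GCOS, per the submitters' processing notes. Each array had a trimmed mean of 100.01 (2% off either end), and the number of arrays limits the precision. A genome build was not given in the sources used here. Of 54675 probe sets, 41097 had 1 symbol in the platform annotation, and 1801 with several symbols named no gene. Probe sets ran to 19775 genes, each taken as its brightest one, and 11921 had a mean above the floor of 12.9, the median of all signals. Signals were floored, put on the log2 scale and not scaled again.

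Genes were tested with R 4.3.3 and limma 3.58.1, using lmFit, eBayes with a trend in intensity, and a Benjamini-Hochberg threshold of 0.05. The fit over 3 times had 2 residual and 12.65 prior degrees of freedom. The fits on the later pairs and on the 0 h term had 1 residual degree of freedom and an infinite prior. Since no group has a replicate, a difference that depends on time counts as error in the fit over 3 times. Its p-values weigh the siRNA difference against its disagreement between times and the spread of genes of like brightness. With an infinite prior, the fits on the later pairs and the 0 h term use only the spread of other genes, not the gene's own. No p-value here measures the spread between repeats, and the spread used may be technical. The limma code was checked on simulated data.

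Members and gene lists were chosen with earlier results of these data known, and some genes stand in more than 1 list. Genes named were the 15 highest and 15 lowest at 0 h with a signal of at least 100 and both signals above the floor, up to 6 per direction with 1 signal at the floor, up to 5 members per list with the largest differences and members called over the 3 times, up to 6 per direction that rest on siControl 0 h, and up to 6 called for another difference at 0 h. TXNIP, PLAUR, EPCAM, TRAF3IP2, PIPOX, PUS10, ERICH4, UNC5CL and the bright genes that rest on siControl 0 h were named after their values were seen. Many genes that the rules named are not described singly. Alternatives were other floors, a pseudocount, both scalings, the mean of probe sets, no _x_at or _s_at probe sets, no filter, no trend, leaving out a pair of arrays and replacing a 0 h array. Promoters came from RefSeq, GRCh38.p14. Python 3.11.15 made the tables and figures, with pandas 2.3.3 and matplotlib 3.10.9.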

Additional observations from a re-analysis of the deposited data

Results flagged for a closer look

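For 7 genes the siRNA difference at 0 h departed from its mean at 1.5 and 24 h by limma's test of that difference itself. The departure, 0 h minus later on the log2 scale, was 2.70 ± 0.27 (SE) for FOLR1, 1.67 ± 0.32 for DPP4, 1.79 ± 0.35 for WDR74, 3.08 ± 0.62 for CAPN10, 1.80 ± 0.37 for PKDCC, -3.00 ± 0.67 for ANHX and 1.24 ± 0.28 for TXNIP. Adjusted p ran from 2.45e-19 for FOLR1 to 0.0222 for TXNIP, with 1 residual degree of freedom and a spread taken from other genes. FOLR1 passed under 8 of 10 other settings, with adjusted p from 8.43e-19 to 1. DPP4, WDR74 and PKDCC passed under 5 of 10 each, CAPN10 and TXNIP under 3 of 9, and ANHX under 3 of 7, where each gene's adjusted p reached 1 in at least 1 setting. CAPN10 ranged from -0.16 to 3.14 across settings, so its sign turned. The siControl 0 h array gave FOLR1 its lowest and ANHX its highest signal of the 6 arrays.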

How the results depend on the processing

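Without a test, the counts at 2-fold depended on the floor. They were 344 higher and 390 lower for a floor at the 40th percentile, 102 and 113 at the 60th, 58 and 49 at the 75th, and 107 and 112 with a pseudocount. Averaging a gene's probe sets gave 127 lower. Genes at signals of 100 or more, a limit chosen after seeing the data, gave 71 and 65. The 1.5 h pair gave 389 lower, and the 24 h pair 266 higher and 364 lower. Replacing either 0 h array left both counts within 1.5 times. Over the 3 times limma called 0 and 0 with no filter on dim genes, 16 and 29 without the trend, 296 and 282 without the 1.5 h pair, and 133 and 109 without the 24 h pair. In the later pairs alone it called 297 and 295 at the 40th percentile, 255 and 315 with the mean of probe sets, 289 and 313 without _x_at and _s_at probe sets, and 0 and 0 with no filter or no trend. The 0 h term was called for 1 gene at the 40th percentile, with the mean of probe sets or with quantile normalization, 0 without the trend and 422 with no filter. The cause was not tested. Scaling to the same median moved the split over the 3 times to 558 higher and 385 lower (59.2% higher, against 48.4%). The median of all genes at 0 h went from -0.014 to -0.003. List medians at 0 h kept their sign under both scalings, except NRF2 targets (-0.01 with quantile normalization). Without _x_at and _s_at probe sets 5 named genes at 2-fold or more turned sign at 0 h. They went to 0.12 for AP1S2, -0.13 for CAPN10, 0.29 for DUSP8, 0.76 for MASP2 and 0.16 for RNH1. There another probe set stands for the gene. Turns of sign in named genes under 2-fold were not counted apart from the rest. Named genes otherwise moved by less than the SD of their 3 differences in 2041 values and by more in 86. The fit over the 3 times pairs the arms by time. No paired analysis by replicate number was possible because each group has 1 array.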

Other observations

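The arrays also show where the siRNA difference at 0 h was small beside abundant liver transcripts. ALB, AFP and APOA1 (4624 in siHNF4a and 4835 in siControl) differed little at 0 h. The 18 hepatocyte and HepG2 markers summed to 93830 in siHNF4a and 88888 in siControl at 0 h. Of the 18, 14 were higher in siHNF4a (5623 of 11921 over all genes). The siControl 0 h sum was the lowest of all arrays. With siControl at 1.5 h (97435) in its place, the siHNF4a 0 h sum was the lower one. Within the later pairs the siHNF4a sum was the higher one, 100025 against 97435 at 1.5 h and 101702 against 96201 at 24 h. TTR, 1 of these markers, was lower at 0 h, at 826.5 in siHNF4a and 1076 in siControl, and fell over the 3 times (adjusted p = 0.0115). FGB was higher, at 1511 in siHNF4a and 846.6 in siControl, and rose (adjusted p = 0.00089). The remaining 16 did not pass.

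List counts at 2-fold also moved when siControl at 1.5 h took the place of siControl 0 h, a setting that was applied to the lists after seeing the data. Over all 11921 genes kept, the counts were then 195 higher and 232 lower in place of 175 and 194. Textbook HNF4A targets had 6 of 40 at 2-fold lower and 1 higher, and bile acid genes 4 of 24 lower. Interferon-response genes had 6 of 37 lower in place of 1. TGF-beta targets had 6 of 40 lower and 1 higher in place of 1 lower and 3 higher. In this setting an array of TGF-beta-treated cells stood on the siControl side only.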
